A study of Mus musculus with 93 samples.

Results

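The livers of PWK/PhJ mice, a wild-derived inbred strain, were compared between mice on a western diet (WD) and mice on a control diet (CD). The labels give 13 PWK/PhJ mice among the 93 mice of 7 strains whose liver RNA was sequenced, 7 on WD and 6 on CD, and all 13 were used. All were males kept at 30°C, which is thermoneutral for mice, from 6 weeks of age. They were given WD (40% of calories from fat, 17% from protein, 43% from carbohydrate) or CD (10%, 17% and 73%) from 7 weeks of age for 17 weeks, and were killed at 24 weeks after a fast of 4 h. The other 6 strains (129S1/SvImJ, A/J, C57BL/6J, CAST/EiJ, DBA/2J and WSB/EiJ) had the same housing and the same diets. PWK/PhJ mice came in cohorts 1 and 2, each with mice on both diets (3 CD and 3 WD, then 3 CD and 4 WD). Each sample is 1 mouse, the inbred mice of a strain are nearly alike in their genome, and replicate numbers only name mice.

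A diet rich in fat and sugar loads hepatocytes with triglycerides and cholesterol. In steatohepatitis the fat is joined by inflammation, with macrophages that take up lipid and debris, and by fibrosis, in which hepatic stellate cells lay down collagen. Sterols that reach the liver with food shut down its own cholesterol synthesis through the transcription factor SREBP2. Male and female livers also differ in many genes, through the pulses of growth hormone from the pituitary.

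Each PWK/PhJ mouse had 44479522 to 49085102 reads on genes, with 47003917 to 49085102 on CD and 44479522 to 46606121 on WD, so that the deepest WD library lay under the shallowest CD library. The RNA integrity number (RIN) was 8.3 to 9.1 on CD and 7.6 to 9.2 on WD. Hepatocyte markers were present in all 13 livers, with Alb (albumin) between 52373 and 108723 CPM (the read count scaled to the normalized library size). Markers of adipocytes and mesothelium summed to at most 1.86 and 7.08 CPM in any mouse. Pancreatic markers summed to 185 CPM in WD replicate 1 and 61.7 CPM in CD replicate 6, against 8.30 to 18.7 CPM in the other mice. CD replicate 5 had low levels of non-parenchymal markers. Its Kupffer cell markers summed to 181 CPM against 405 to 620.5 in the other CD mice, its endothelial markers to 484 against 726 to 821, and its MHC class II and dendritic cell markers to 110.0 against 275 to 379. Results that rest on this mouse are given with and without it.

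The diet changed the level of a large share of the liver transcriptome in PWK/PhJ. Of 19110 genes tested with limma-voom, 6008 (31.4%) were differentially expressed (DEGs, Benjamini–Hochberg adjusted p below 0.05). WD raised 3074 (16.1% of the genes tested) and lowered 2934 (15.4%), and 5286 of the DEGs code for proteins. The changes of more than 2-fold were mostly increases, with 1324 genes up and 303 down. With upper-quartile normalization 3358 genes were raised and 2442 lowered. In 2326 of the DEGs (38.7%) no WD mouse lay within the range of the CD mice, and such a separation was found in 12.6% of all genes tested, whether called or not. The median log2 fold change over all genes was -0.01. All adjusted p-values of single genes below are from limma-voom. Like the SE, they rest on the spread between mice within the groups of all strains, not of PWK/PhJ alone.

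Of 5996 DEGs that could be fitted within each cohort alone, 5987 (99.8%) had the same sign in both, and 1875 passed the threshold in each. The DEGs were called on the same mice, so this is a description and no independent support. In the 13 PWK/PhJ mice no gene of 16154 differed between the cohorts in its diet effect by limma-voom or by edgeR (830 and 827 genes at an unadjusted p below 0.05), and 12 did by DESeq2. No gene differed in level between cohorts by limma-voom, with 1611 at an unadjusted p below 0.05. The first principal component of the 13 mice held 35.3% of the variance and separated the diets, and CD replicate 5 lay at its far CD end.

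The diet effect in PWK/PhJ differed from the mean effect of the other 6 strains for 1647 genes in the upward direction (8.62% of genes tested) and 1810 in the downward direction (9.47%), and with upper-quartile normalization that split became 1747 and 1643. Against C57BL/6J alone it differed for 2923 genes, 1485 upward and 1438 downward, and under the same normalization the split became 1709 and 1038. Against 129S1/SvImJ it differed for 1835 genes, 913 upward and 922 downward, and the split became 750 and 1165 with upper-quartile normalization.

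**Figure D1:**
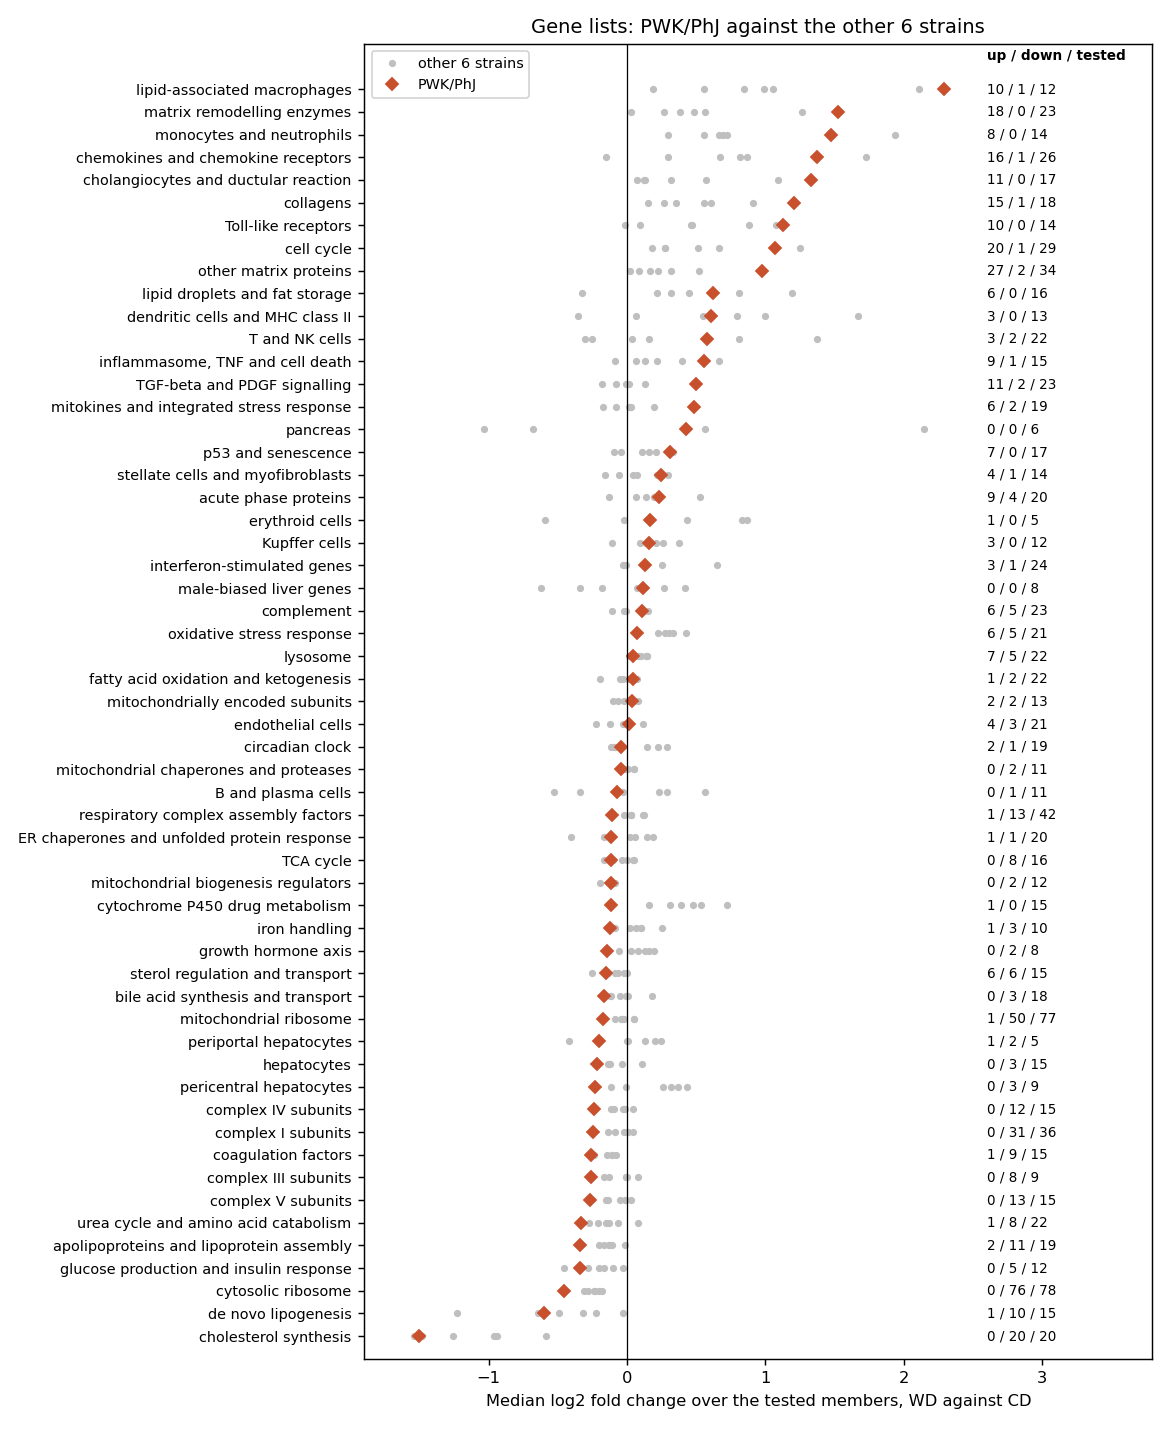
Median log2 fold change (x axis, WD against CD) of 56 lists of liver genes (those with at least 5 genes tested, the female-biased list left out because of its scale) in PWK/PhJ (red diamonds) and in each of the other 6 strains (grey points); numbers at the right count the PWK/PhJ DEGs up and down and the genes tested. Matrix, macrophage and ductular lists lie to the right, led by lipid-associated macrophages at 2.29, and the cholesterol synthesis list lies at the left at -1.50.

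When protein-coding DEGs under a log2 CPM of 1 on average, or with mice of both diets in the same range, were set aside, the deepest falls in the PWK/PhJ liver included those of genes known for higher expression in female than in male mouse liver. Of 9 female-biased genes tested, 7 fell on WD and none rose, with a median log2 fold change of -3.13 against -0.01 over all genes. Sult3a1, a sulfotransferase gene on the plus strand of chr10:33857721-33879532 (GRCm38), was measured at 82.7 to 588 CPM on CD (median 153) and at 0.116 to 1.49 CPM on WD (median 0.519). Every CD mouse lay more than an order of magnitude above every WD mouse, and the log2 fold change was -8.60 ± 0.42 (SE; adjusted p = 5.19e-28). Cyp3a41a, a cytochrome P450 of the steroid- and drug-oxidizing CYP3A family, was at 25.9 to 204 CPM on CD (median 59.1) and at 0.0811 to 0.706 CPM on WD (median 0.214). The groups were again far apart, with a log2 fold change of -8.14 ± 0.50 (adjusted p = 1.24e-22).

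Cyp3a44, a neighbour of Cyp3a41a on chromosome 5, was at 13.5 to 43.8 CPM on CD (median 29.5) and at 0.0858 to 0.847 CPM on WD (median 0.243), a log2 fold change of -6.68 ± 0.56 (adjusted p = 2.64e-16). The WD mice had 4 to 76 reads per mouse on each of Sult3a1, Cyp3a41a and Cyp3a44. Cyp2a4, a steroid hydroxylase, stayed well expressed, at 814 to 2398 CPM on CD and 101 to 432 CPM on WD, and fell by 2.34 ± 0.63 on the log2 scale (adjusted p = 0.00236).

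A further 4 genes of the list are named here after their values were seen. A1bg had 2 to 75 reads per mouse on CD and 0 to 2 on WD and was called (adjusted p = 0.00553). Cux2, a repressor of male-biased genes in female liver, was called with a log2 fold change of -1.96 ± 0.75 (adjusted p = 0.038), but the groups overlapped (from 0.396 CPM on CD, up to 0.601 CPM on WD), and the adjusted p rose to 0.101 without CD replicate 3. Cyp2b9 (-3.12 ± 1.48, adjusted p = 0.0999) and Cyp2b13 (-1.70 ± 1.83, adjusted p = 0.523) were not called, and in both genes the groups overlapped. Cyp2b9 was called without CD replicate 1 (-3.60, adjusted p = 0.0444) or without CD replicate 2 (-3.59, adjusted p = 0.0447). CD replicate 3 was the highest mouse for Sult3a1, A1bg, and Cyp2b13. Without it the log2 fold change of Sult3a1 was -8.25 and that of Cyp3a41a -7.79.

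**Figure D2:**
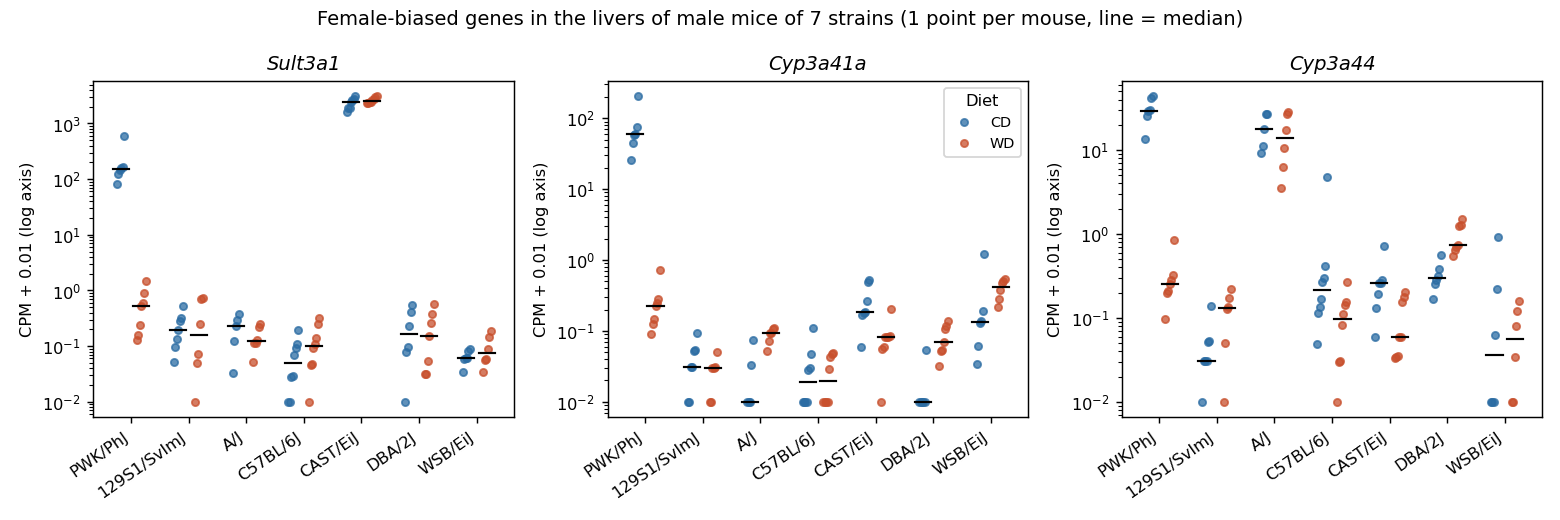
CPM + 0.01 (log axis) of Sult3a1, Cyp3a41a and Cyp3a44 in each of 93 male mice by strain, CD in blue and WD in red, with a line at each group's median. The CD and WD mice of PWK/PhJ are separated in all 3 panels, CAST/EiJ is high for Sult3a1 on both diets, and A/J for Cyp3a44 on both diets.

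Most of the other strains had next to no reads of these genes to lose. Males of 129S1/SvImJ, A/J, C57BL/6J, DBA/2J and WSB/EiJ had at most 0.728 CPM of Sult3a1 on either diet, while CAST/EiJ males had 1624 to 3078 CPM on CD and 2319 to 3072 CPM on WD (a log2 fold change of 0.22, adjusted p = 0.51). No mouse of another strain exceeded 1.22 CPM of Cyp3a41a. A/J males had 9.18 to 27.2 CPM of Cyp3a44 on CD and 3.54 to 28.5 CPM on WD (a log2 fold change of -0.13, adjusted p = 0.855). A difference in diet effect from strains without expression restates the fall in PWK/PhJ, so none is given here.

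None of 8 male-biased genes tested was called, with a median log2 fold change of 0.12. A missing call does not show that a gene stayed level, since the SE below reach 0.64. Cyp2d9 was at 811 to 1604 CPM on CD and 881 to 1558 CPM on WD (-0.08 ± 0.30, adjusted p = 0.875). The values of Hsd3b5 were -0.83 ± 0.64 (adjusted p = 0.34) and those of Elovl3 0.45 ± 0.59 (adjusted p = 0.614). Elovl3, a fatty acid elongase, was at 9.16 CPM in CD replicate 3, the lowest of all 13 mice, and reached 312 CPM in the other CD mice. Without that mouse the log2 fold change of Elovl3 was -0.20 (adjusted p = 0.842). Of the 8 genes of the growth hormone axis, Igf1 (-0.32 ± 0.12, adjusted p = 0.0304) and Igfals (-0.36 ± 0.14, adjusted p = 0.0466) fell and Ghr, the receptor, was at -0.00 ± 0.10 (adjusted p = 0.993). Neither of the 2 calls held without CD replicate 5 (adjusted p = 0.0571 and 0.0749).

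Cyp3a41a and Cyp3a44 are paralogs of similar sequence, and the 250 bases before their starts are printed to show how alike their promoters are. They come from RefSeq (GRCm38.p6), both on the minus strand, Cyp3a41a from chr5:145720137-145720386 and Cyp3a44 from chr5:145805875-145806124. Capitals mark a match, on either strand, to ATTGAT, the core bound by the HNF6 and CUX2 factors.
Cyp3a41a: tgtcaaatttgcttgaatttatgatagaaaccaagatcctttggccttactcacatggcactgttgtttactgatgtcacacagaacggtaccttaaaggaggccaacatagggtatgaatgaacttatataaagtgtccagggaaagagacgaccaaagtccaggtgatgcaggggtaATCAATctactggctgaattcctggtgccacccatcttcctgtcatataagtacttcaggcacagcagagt
Cyp3a44: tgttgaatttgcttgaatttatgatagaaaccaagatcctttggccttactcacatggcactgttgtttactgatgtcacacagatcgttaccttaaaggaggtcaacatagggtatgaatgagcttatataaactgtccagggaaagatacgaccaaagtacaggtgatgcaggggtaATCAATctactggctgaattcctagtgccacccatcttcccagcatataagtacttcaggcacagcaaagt

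The 2 promoters were identical at 236 of 250 positions (94.4%), and the matched core lay in the identical part. ATTGAT was found in the promoters of 4 of the 8 female-biased genes with a promoter in the table (50%; A1bg, Cyp3a41a, Cyp3a44 and Sult3a1) and in 7.72% of all genes with one. It was found in none of the 15 cholesterol synthesis genes. The matches in Cyp3a41a and Cyp3a44 are not separate finds, since their promoters are near copies. The STAT5 core TTCNNNGAA was found in 2 of the 8 (25%; A1bg and Sult3a1) and in 8.13% of all genes. The motifs were chosen after the expression values were known, and a match is a run of letters, not a binding site. Reads of the CYP3A paralogs can be shared or lost between near-identical copies in the reference, so the level of each is uncertain. For the same reason the falls of Cyp3a41a and Cyp3a44 may not be separate results.

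The largest rise by the same criteria was that of Sptlc3 (chr2:139493913-139637674, plus strand, GRCm38), a subunit of serine palmitoyltransferase, which begins sphingolipid synthesis. It had 0.0403 to 1.12 CPM on CD (median 0.144) and 13.2 to 43.2 CPM on WD (median 36.5). The groups did not overlap, with a log2 fold change of 7.37 ± 0.40 (adjusted p = 1.72e-25) that exceeded the mean of the other strains by 6.41 ± 0.59 (adjusted p = 1.22e-13). No mouse of another strain exceeded 0.662 CPM. Sptlc3 rose in DBA/2J too, by 4.42 on the log2 scale (adjusted p = 6.89e-05), from at most 0.0224 CPM on CD to between 0.148 and 0.662 CPM on WD. The CD mice of PWK/PhJ stood apart in another gene, Orm1, an acute phase protein of plasma. It was at 7.32 to 11.6 CPM on CD and at 63.7 to 264 CPM on WD, while mice of the other strains had 81.1 to 2827 CPM whatever their diet. Its log2 fold change of 3.89 ± 0.31 (adjusted p = 2.04e-17) was 3.73 ± 0.33 above their mean effect. Mup19, of the major urinary protein family, rose from 0.0403 to 1.88 CPM on CD to 7.03 to 19.6 CPM on WD (4.32 ± 0.67, adjusted p = 2.64e-07). Orm1 and Mup19 have near-identical copies, among which reads cannot be told apart with certainty.

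Cholesterol synthesis fell as a whole. All 20 tested genes of the pathway fell and none rose, with a median log2 fold change of -1.50, and in 15 of them the diets did not overlap. Without CD replicate 5 all 20 fell as well. Msmo1, which removes the methyl groups of sterol precursors, was at 84.7 to 364 CPM on CD (median 179) and at 14.8 to 57.8 CPM on WD (median 28.3), a log2 fold change of -2.33 ± 0.27 (adjusted p = 6.28e-11). Sqle (squalene epoxidase) and Mvd (which makes isopentenyl diphosphate) followed at -2.30 ± 0.29 and -2.21 ± 0.24, also with no overlap. The pathway fell in the other strains too, by 10 to 19 of its genes. The effect in PWK/PhJ was lower than their mean for 4 of the 20 genes and higher for none.

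**Figure D3:**
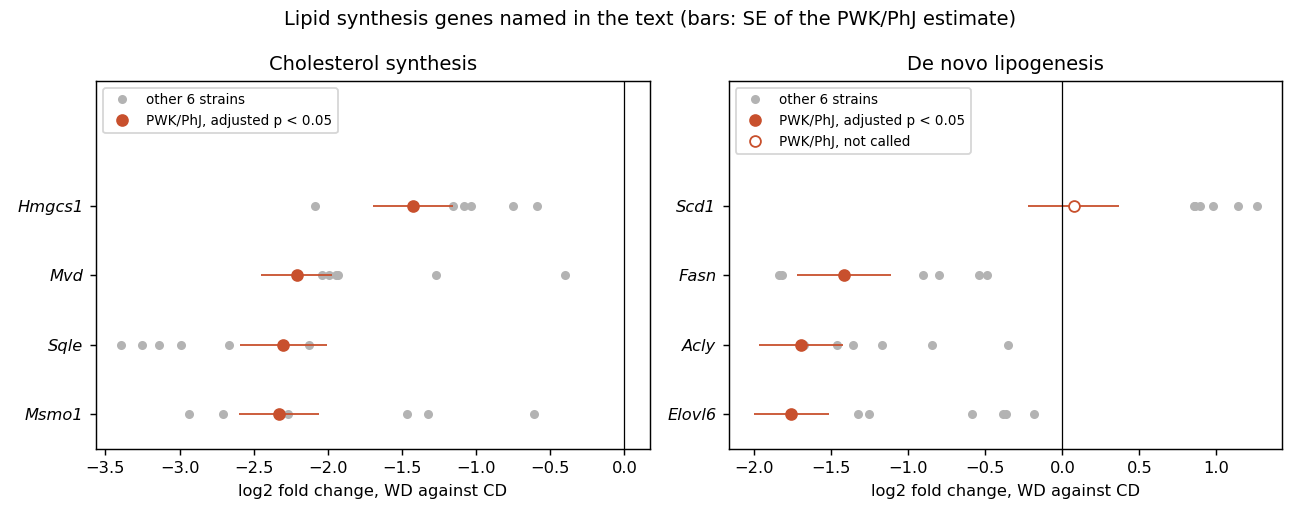
Log2 fold change on WD against CD (x axis) of the cholesterol synthesis and de novo lipogenesis genes named in the text, in PWK/PhJ (red, bars are SE, open points not called) and in each of the other 6 strains (grey). Msmo1, Sqle, Mvd and Hmgcs1 lie left of 0 in PWK/PhJ, as do Elovl6, Acly and Fasn, while Scd1 lies at 0.07.

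The promoters of 3 of these genes show a feature that the pathway shares, the CCAAT box, which binds NF-Y, a partner of SREBP2. Each run is the 250 bases before the RefSeq start (GRCm38.p6): Msmo1 from chr8:64733579-64733828 and Mvd from chr8:122443423-122443672, both minus strand, and Hmgcs1 from chr13:119690101-119690350, plus strand. Capitals mark CCAAT on either strand and, in Hmgcs1 alone, the core TCACNCCAC of a sterol response element.
Msmo1: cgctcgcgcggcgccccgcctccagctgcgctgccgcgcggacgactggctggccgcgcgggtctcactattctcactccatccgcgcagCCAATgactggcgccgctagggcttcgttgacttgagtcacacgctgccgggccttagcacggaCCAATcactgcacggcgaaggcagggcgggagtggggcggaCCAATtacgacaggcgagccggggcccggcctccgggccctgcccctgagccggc
Mvd: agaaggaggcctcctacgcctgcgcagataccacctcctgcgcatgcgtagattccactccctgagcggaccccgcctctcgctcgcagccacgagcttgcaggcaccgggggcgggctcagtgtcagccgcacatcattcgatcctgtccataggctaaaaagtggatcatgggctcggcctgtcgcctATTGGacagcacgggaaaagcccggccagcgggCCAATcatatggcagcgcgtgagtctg
Hmgcs1: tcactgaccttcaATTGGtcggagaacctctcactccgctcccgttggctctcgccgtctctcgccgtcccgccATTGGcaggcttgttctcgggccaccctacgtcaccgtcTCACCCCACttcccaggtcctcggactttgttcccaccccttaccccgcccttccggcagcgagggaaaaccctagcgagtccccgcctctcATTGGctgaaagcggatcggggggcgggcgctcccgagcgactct

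Msmo1 had 3 CCAAT boxes, Mvd 2 and Hmgcs1 3. A CCAAT box was found in 14 of the 15 cholesterol synthesis genes with a promoter in the table (93.3%, all but Acat2) and in 37.5% of all genes with one. It was in none of the 8 female-biased promoters. The sterol response core was found in Hmgcs1 alone among the 15 (6.67%) and in 1.22% of all genes. Hmgcs1, named after its sequence was seen, acts early in the pathway and fell by 1.43 ± 0.27 on the log2 scale (adjusted p = 1.7e-05).

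Genes of sterol regulation and transport moved both ways. Of 15 tested, 6 fell and 6 rose. Abcg1, an exporter of cholesterol and a target of the oxysterol receptor LXR, rose from 4.10 to 7.14 CPM on CD to 12.5 to 16.5 CPM on WD (1.28 ± 0.15, adjusted p = 1.07e-10). Srebf1, the gene of SREBP1, rose by 0.70 ± 0.23 (adjusted p = 0.0153).

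Most genes of fatty acid synthesis fell. Of 15 lipogenic genes, 10 fell and 1 rose, with a median of -0.60. In WSB/EiJ 11 of them fell and 1 rose, with a median of -1.23. Against 129S1/SvImJ alone the effect in PWK/PhJ differed for none. Elovl6, an elongase of palmitate, was at 208 to 1236 CPM on CD and 105 to 143 CPM on WD (-1.76 ± 0.24, adjusted p = 1.35e-08). Its fall was deeper than the mean of the other strains (a difference of -1.08 ± 0.26, adjusted p = 0.00172). Acly, which makes cytosolic acetyl-CoA, and Fasn, the fatty acid synthase, fell by 1.70 ± 0.27 and 1.42 ± 0.30 with no overlap between diets. Scd1, the stearoyl-CoA desaturase, was at 10648 to 29396 CPM on CD and 15721 to 23889.8 CPM on WD. The groups overlapped fully (0.07 ± 0.30, adjusted p = 0.889), and against the other strains' mean effect it stood at -0.93 ± 0.32 (adjusted p = 0.0322). G6pdx, the NADPH-producing enzyme that opens the pentose phosphate pathway, was at 19.5 to 62.4 CPM on CD and 5.19 to 8.40 CPM on WD (-2.20 ± 0.20, adjusted p = 3.13e-14). Its fall was also deeper than the mean of the other strains (a difference of -1.69 ± 0.23, adjusted p = 6.88e-08).

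Genes of fat storage rose in part. Of 16 tested, 6 rose and none fell, with a median of 0.62. In C57BL/6J 9 rose (median 0.81) and in 129S1/SvImJ 7 (median 1.19), while in CAST/EiJ 3 fell and none rose. Against 129S1/SvImJ alone the effect in PWK/PhJ was higher for 1 gene and lower for 2. Pparg, the adipogenic nuclear receptor, was at 0.261 to 0.463 CPM on CD and 1.22 to 11.5 CPM on WD (3.57 ± 0.56, adjusted p = 3.28e-07), above the mean effect elsewhere by 1.79 ± 0.60 (adjusted p = 0.0258). Mogat1, which makes diacylglycerol, had 1 to 17 reads per mouse on CD and 66 to 209 on WD (3.99 ± 0.64, adjusted p = 6.45e-07). Cidec, which fuses lipid droplets, rose from 2.19 to 5.40 CPM on CD to 7.55 to 48.5 CPM on WD (2.19 ± 0.60, adjusted p = 0.00269). The droplet coat gene Plin2 (-0.12 ± 0.29, adjusted p = 0.798) and the droplet enzyme gene Hsd17b13 (0.08 ± 0.10, adjusted p = 0.583) were not called.

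Lipoprotein assembly genes fell. Of 19 tested, 11 fell and 2 rose. The effect was lower than the mean of the other strains for 7 and higher for none. Tm6sf2, which serves the lipidation of VLDL, was at 24.9 to 41.4 CPM on CD and 10.8 to 16.3 CPM on WD (-1.32 ± 0.13, adjusted p = 7.18e-13; a difference from the other strains of -0.91 ± 0.14, adjusted p = 2.32e-06). Apob, the backbone of VLDL, was at 0.12 ± 0.08 (adjusted p = 0.271), and Apoe at 0.06 ± 0.07 (adjusted p = 0.579). Apoa4 rose by 1.06 ± 0.39 (adjusted p = 0.028), with groups that overlapped and a call that leaving out any of 5 single mice ended (up to an adjusted p of 0.121 without CD replicate 6).

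Most genes of fatty acid oxidation were not called. Of 22, ketogenesis included, 1 rose and 2 fell, with a median of 0.04. Ppara, the nuclear receptor of the pathway, rose by 0.62 ± 0.25 (adjusted p = 0.0458; 0.1 without CD replicate 5). Cpt1a, the entry step, was at 0.34 ± 0.17 (adjusted p = 0.125). Of 18 genes of bile acid synthesis and transport, 3 fell and none rose, a share near the 15.4% of all genes tested that fell. Slc10a1, which takes up bile acids from blood, was at 1077 to 1314 CPM on CD and 513 to 825 CPM on WD (-0.87 ± 0.19, adjusted p = 0.000141). Cyp7a1, the rate-limiting enzyme of bile acid synthesis, overlapped between diets (1.20 ± 0.54, adjusted p = 0.0834; 1.52, adjusted p = 0.0355, without CD replicate 6), as did Cyp8b1 (-0.48 ± 0.28, adjusted p = 0.197).

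Of 12 genes of glucose production and insulin response, 5 fell and none rose. In 129S1/SvImJ 9 of the 12 fell and none rose. G6pc, which releases free glucose, was at 745 to 1641 CPM on CD and 267 to 521 CPM on WD (-1.77 ± 0.39, adjusted p = 0.000181). Pck1, the committed enzyme of gluconeogenesis, fell by 1.48 ± 0.25 (adjusted p = 1.68e-06). Its fall was deeper than the mean of the other strains (a difference of -1.02 ± 0.27, adjusted p = 0.00473). In 129S1/SvImJ Pck1 was at -0.98 (adjusted p = 0.00156), and the difference from that strain alone was -0.50 ± 0.35 (adjusted p = 0.41). CD replicate 1 had 240.3 CPM of Pck1, within the WD range of 204 to 499, and the other CD mice 878 to 1516. Of 22 genes of the urea cycle and amino acid catabolism, 8 fell and 1 rose. In 129S1/SvImJ 11 of them fell and 1 rose. Against that strain alone the effect in PWK/PhJ was lower for none and higher for 1. Hal, the histidine ammonia-lyase, was at 372 to 482 CPM on CD and 149 to 329 CPM on WD (-1.05 ± 0.14, adjusted p = 2.75e-09), Gls2, the liver glutaminase, fell by 0.82 ± 0.14, and Cps1, the entry enzyme of the cycle, was at -0.26 ± 0.15 (adjusted p = 0.181).

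Matrix genes of fibrosis rose broadly. Of 18 collagen genes 15 rose and 1 fell (median 1.21), of 34 other matrix genes 27 rose and 2 fell (median 0.97), and of 23 enzymes that modify or break down matrix 18 rose and none fell (median 1.53). For these 3 lists the rise exceeded the mean of the other strains for 11, 25 and 15 genes and fell short of it for none. Against 129S1/SvImJ alone it was larger for 1, 4 and 4 genes and smaller for 2 collagens. Without CD replicate 5 the counts of rises were 15, 27 and 18. Col1a1, of fibrillar collagen I, was at 3.00 to 4.59 CPM on CD (median 3.50) and at 18.5 to 117 CPM on WD (median 70.0). The lowest WD mouse, replicate 6, was several-fold above the highest CD mouse, and the log2 fold change was 4.12 ± 0.48 (adjusted p = 8.68e-11). Col3a1 was at 12.0 to 17.0 CPM on CD and 56.1 to 218 CPM on WD (3.37 ± 0.31, adjusted p = 3.23e-14).

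The rise of Col1a1 was 2.45 ± 0.53 above the mean of the other strains (adjusted p = 0.000442), and Col1a1 was called in 129S1/SvImJ (3.52) and C57BL/6J (1.68) as well. Postn, the matrix protein periostin, was at 0.834 to 1.48 CPM on CD and 7.49 to 21.3 CPM on WD (3.60 ± 0.32, adjusted p = 6.61e-15), and its log2 fold change in the other strains lay between -0.22 and 0.53, a difference from their mean of 3.39 ± 0.33 (adjusted p = 9.92e-13). The provisional matrix genes Tnc (tenascin C, 4.06 ± 0.52) and Vcan (versican, 4.23 ± 0.47) rose with no overlap. Spp1 (osteopontin) rose from 55.8 to 135 CPM on CD to 149.6 to 501 CPM on WD (1.74 ± 0.30, adjusted p = 3.44e-06). Col18a1, of basement membranes, was the collagen that fell (-0.30 ± 0.08, adjusted p = 0.00146), and Fn1 (fibronectin), made mainly by hepatocytes, was not called (-0.19 ± 0.09, adjusted p = 0.105), but was without CD replicate 5 (-0.29, adjusted p = 0.0176).

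Among the enzymes and their inhibitors, Timp1, an inhibitor of matrix metalloproteinases, was at 0.190 to 0.362 CPM on CD (9 to 18 reads) and 1.99 to 11.5 CPM on WD (93 to 649 reads), a log2 fold change of 4.51 ± 0.46 (adjusted p = 1.59e-12). Mmp27, a metalloproteinase, rose from 0.127 to 0.684 CPM to 4.33 to 34.1 CPM (5.11 ± 0.59, adjusted p = 9.49e-11), 4.04 ± 0.66 above the mean of the other strains (adjusted p = 4.69e-06). Lox, the cross-linker of collagen, rose by 2.82 ± 0.37 (adjusted p = 4.26e-09). Mmp14 was not called (0.11 ± 0.14, adjusted p = 0.588). WD replicate 6 had the lowest level of Col1a1, Col3a1, Postn and Timp1 among the WD mice, and WD replicate 2 the highest.

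**Figure D4:**
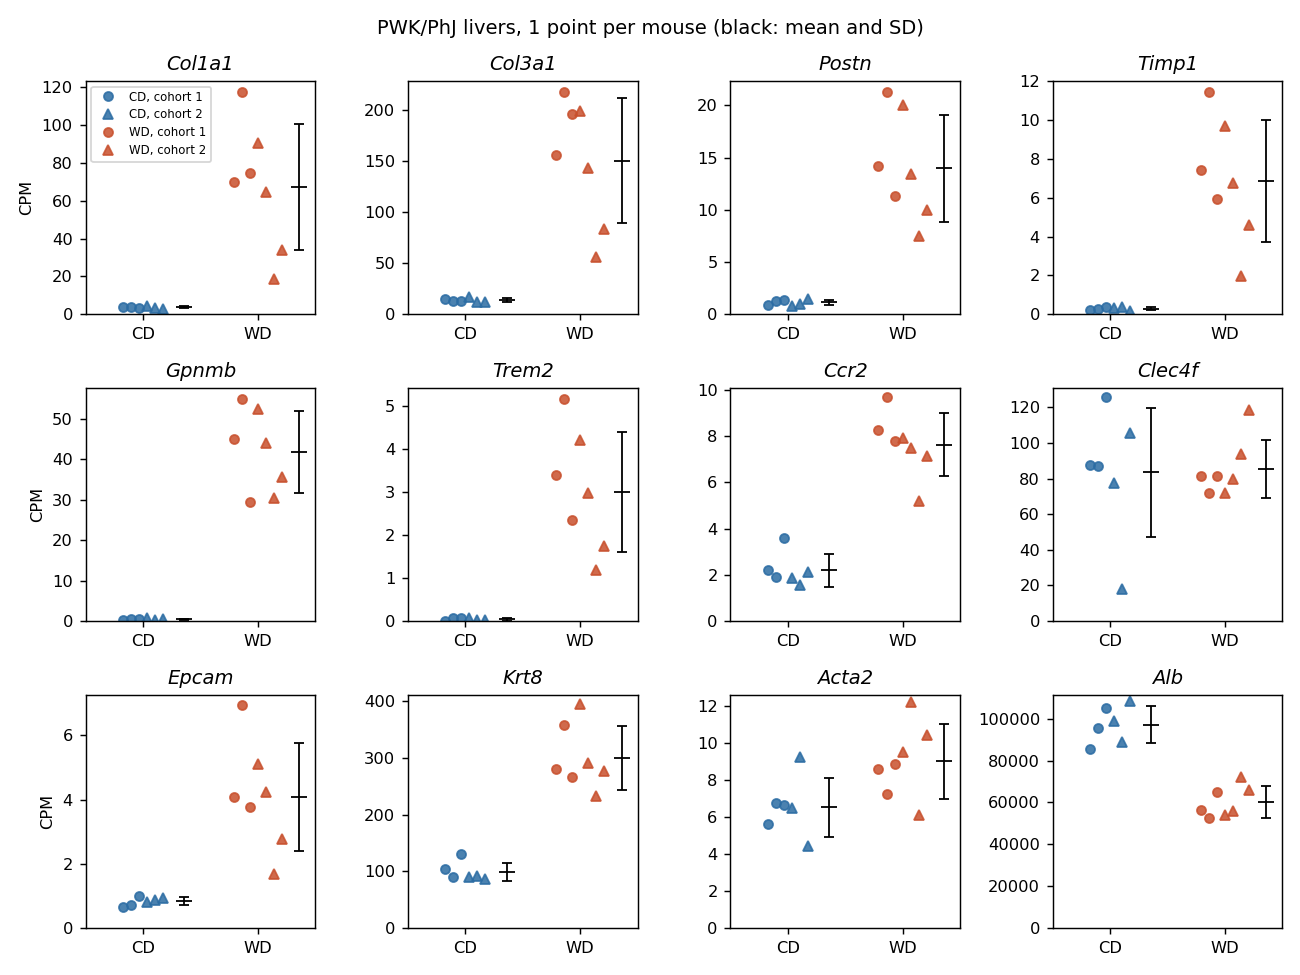
CPM (y axis, from 0) of 12 genes in each PWK/PhJ mouse by diet, circles for cohort 1 and triangles for cohort 2, with the mean and SD in black (6 CD and 7 WD mice). Col1a1, Col3a1, Postn, Timp1, Gpnmb, Trem2, Ccr2, Epcam, Krt8 and Alb do not overlap between the diets, and Clec4f and Acta2 do; CD replicate 5 is the low Clec4f point at 17.9 CPM.

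Markers of stellate cells themselves were mostly not called. Of 14 tested 4 rose and 1 fell, with a median of 0.25, and the summed level was 133 to 221 CPM on CD and 239 to 307 CPM on WD. Pdgfrb, the receptor of PDGF on these cells, was at 7.33 to 13.2 CPM on CD and 16.1 to 30.5 CPM on WD (1.13 ± 0.17, adjusted p = 8.48e-08). Cygb, a globin of quiescent and activated stellate cells, rose by 1.16 ± 0.21 (adjusted p = 5.33e-06). Acta2, the smooth muscle actin of myofibroblasts, was at 4.41 to 9.23 CPM on CD and 6.07 to 12.2 CPM on WD, overlapped, and was not called (0.46 ± 0.22, adjusted p = 0.106; 0.56, adjusted p = 0.0495, without WD replicate 6). Of 23 genes of TGF-beta and PDGF signalling 11 rose and 2 fell. Tgfb2 rose by 2.28 ± 0.29 (adjusted p = 9.77e-10), 1.92 ± 0.32 above the mean of the other strains, and Tgfb1 by 0.50 ± 0.12 (adjusted p = 0.000668). In bulk tissue, more or fewer cells of a type and more or less RNA per cell cannot be told apart.

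Of 12 genes of lipid-associated macrophages 10 rose and 1 fell, with a median of 2.29. In 129S1/SvImJ 10 rose and 1 fell too, with a median of 2.11. The effect in PWK/PhJ was above the mean of the other strains for 8 genes, but above 129S1/SvImJ alone for 1. Gpnmb, a lysosomal glycoprotein of these cells, was at 0.232 to 0.688 CPM on CD (median 0.485) and 29.5 to 54.9 CPM on WD (median 44.1), a log2 fold change of 6.46 ± 1.02 (adjusted p = 4.17e-07). Trem2, their lipid-sensing receptor, had 0 to 4 reads per mouse on CD and 55 to 293 on WD, or at most 0.0834 CPM against 1.18 to 5.17 CPM. Its fitted log2 fold change, 6.06 ± 0.96 (adjusted p = 5.04e-07), rests on few CD reads. The listed gene that fell was Fabp5, a fatty acid carrier that hepatocytes also express, from 45.8 to 166 CPM on CD to 10.1 to 20.6 CPM on WD (-2.46 ± 0.34, adjusted p = 1.22e-08).

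Of 12 markers of resident Kupffer cells 3 rose and none fell, with a median of 0.16. Without CD replicate 5 the counts were the same, but the median was -0.11. In cohort 1 alone none was called (median -0.23), and in cohort 2 alone 5 rose (median 0.73). Clec4f was at 17.9 to 126 CPM on CD and 71.9 to 118 CPM on WD (0.25 ± 0.20, adjusted p = 0.371), and its estimate without CD replicate 5 was -0.19. Timd4 was also not called (0.17 ± 0.41, adjusted p = 0.804). Cd5l and Adgre1 rose by 1.10 ± 0.23 and 1.26 ± 0.27, and without CD replicate 5 by 0.69 and 0.84 (adjusted p = 0.00752 for each). Of 14 markers of monocytes and neutrophils 8 rose and none fell, with a median of 1.47. Ccr2, the chemokine receptor of inflammatory monocytes, was at 1.54 to 3.58 CPM on CD and 5.19 to 9.67 CPM on WD (1.84 ± 0.24, adjusted p = 2.78e-09), and Plac8 rose by 0.98 ± 0.18 (adjusted p = 9.43e-06). S100a8, a neutrophil alarmin, had a median of 0.0920 CPM on CD (up to 0.274) and 0.342 CPM on WD (up to 0.659), with overlap (1.63 ± 0.58, adjusted p = 0.0249). Its call ended in 5 of the alternatives outside the single cohorts.

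Most lymphocyte markers were not called. Of 22 T and NK cell markers 3 rose and 2 fell, with the T cell receptor component Cd3e at 0.66 ± 0.31 (adjusted p = 0.101), Cd8a at 0.65 ± 0.28 (adjusted p = 0.069; 0.0354 without CD replicate 4) and Il7r, the IL-7 receptor, at 1.33 ± 0.31 (adjusted p = 0.000403). Of 11 B and plasma cell markers 1 fell and none rose, and without CD replicate 5 none was called. Of 13 genes of dendritic cells and MHC class II 3 rose, and without CD replicate 5 none did. Of 21 endothelial markers 4 rose and 3 fell, and without that mouse 2 rose and 7 fell. The sinusoidal markers Stab2 (0.05 ± 0.15, adjusted p = 0.859) and Lyve1 (0.31 ± 0.17, adjusted p = 0.158) were not called, and Vwf, the von Willebrand factor of larger vessels, rose by 0.87 ± 0.12 (adjusted p = 5.53e-09).

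Genes of bile ducts and the ductular reaction rose in part. Of 17 tested 11 rose and none fell, with a median of 1.33, and 9 rose more and 1 less than the mean of the other strains (3 and 1 against 129S1/SvImJ). Their summed level was 260 to 320 CPM on CD and 494 to 807 CPM on WD. Epcam, the adhesion molecule of biliary cells, was at 0.663 to 0.986 CPM on CD and 1.67 to 6.96 CPM on WD (2.26 ± 0.50, adjusted p = 0.000219). Cftr, the chloride channel of ducts, had 2 to 7 reads on CD and 18 to 198 on WD (3.88 ± 0.52, adjusted p = 7.63e-09). Krt8, a keratin that hepatocytes share, was at 86.6 to 129.8 CPM on CD and 233 to 396 CPM on WD (1.60 ± 0.16, adjusted p = 3.26e-13). Sox9 rose by 1.03 ± 0.23 (adjusted p = 0.000236). Krt19, the defining keratin of cholangiocytes, was at 0.663 to 1.01 CPM on CD and 0.579 to 1.33 CPM on WD and was not called (0.10 ± 0.51, adjusted p = 0.912).

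The hepatocyte list held 15 genes, of which 3 fell and none rose, while 15.4% of all genes tested fell. Their summed level, most of it Alb, was 110071 to 134655 CPM on CD and 68972 to 95596 CPM on WD. Alb was at 85605 to 108723 CPM on CD and 52373 to 72082 CPM on WD (-0.70 ± 0.10, adjusted p = 2.42e-08), and when genes with any count were kept its adjusted p was 0.664. Hnf4a, the hepatocyte transcription factor, was not called (-0.15 ± 0.11, adjusted p = 0.318). Other secreted proteins of hepatocytes fell as well. Of 15 coagulation genes 9 fell and 1 rose, among them Serpinc1 (antithrombin), at 1805 to 1929.6 CPM on CD and 1076 to 1429 CPM on WD (-0.61 ± 0.05, adjusted p = 4.23e-16), and F7 (factor VII, -0.61 ± 0.11, adjusted p = 6.41e-06).

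Inflammatory signals rose. Of 26 genes of chemokines and their receptors 16 rose and 1 fell, with a median of 1.37. Ccl20, a ligand of CCR6, had 0 to 6 reads per mouse on CD and 16 to 42 on WD (3.57 ± 0.38, adjusted p = 7.51e-12). Cxcl12, the ligand of CXCR4, was the one that fell (-0.30 ± 0.10, adjusted p = 0.0197; 0.0567 without CD replicate 5). Of 14 Toll-like receptor genes and partners 10 rose and none fell, with a median of 1.13. Cd14, the co-receptor for lipopolysaccharide, was at 1.58 to 2.74 CPM on CD and 5.94 to 27.7 CPM on WD (2.74 ± 0.27, adjusted p = 3.09e-13), 2.27 ± 0.29 above the mean of the other strains (adjusted p = 1.73e-08), and Tlr4, its signalling receptor, rose by 1.11 ± 0.21 (adjusted p = 1.91e-05). Of 15 genes of the inflammasome, TNF and cell death 9 rose and 1 fell, with Tnf at 1.77 ± 0.52 (adjusted p = 0.00524) and its feedback inhibitor Tnfaip3 at 1.27 ± 0.17 (adjusted p = 5.97e-09).

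The acute phase was mixed. Of 20 genes 9 rose and 4 fell. Saa1, a serum amyloid, was at 19.2 to 201 CPM on CD and 205 to 827 CPM on WD (3.07 ± 0.70, adjusted p = 0.000365), while Fga, the fibrinogen alpha chain, fell by 0.61 ± 0.17 (adjusted p = 0.00331). Of 23 complement genes 6 rose and 5 fell, with C7 at 1.55 ± 0.17 (adjusted p = 7.26e-12) and C3 at -0.17 ± 0.11 (adjusted p = 0.252). Of 24 interferon-stimulated genes 3 rose and 1 fell, no more than the shares of all genes tested (16.1% rose and 15.4% fell).

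Nuclear genes of oxidative phosphorylation (OXPHOS) fell by small amounts. Of 79 nuclear genes for subunits of complexes I to V, 66 fell and none rose, with a median log2 fold change of -0.26 (0.837-fold). By complex, 31 of 36 genes of complex I fell, 2 of 4 of complex II, 8 of 9 of complex III, 12 of 15 of complex IV and 13 of 15 of complex V. Ndufb8, of the membrane arm of complex I, was at 65.8 to 80.2 CPM on CD and 42.4 to 47.6 CPM on WD, with no overlap (-0.62 ± 0.07, adjusted p = 2.19e-10). Ndufa6, also of complex I, was at 101 to 155 CPM on CD and 74.4 to 89.1 CPM on WD (-0.47 ± 0.06, adjusted p = 1.67e-08). Uqcrh of complex III (-0.41 ± 0.06), Atp5g1 of the ATP synthase ring (-0.39 ± 0.07), Cox8a (-0.33 ± 0.06) and Cox4i1 (-0.32 ± 0.05) of cytochrome oxidase also fell. Atp5b, the catalytic subunit of ATP synthase, was at 1154 to 1325 CPM on CD and 936 to 1218 CPM on WD (-0.19 ± 0.05, adjusted p = 0.00232). Ndufs1 (-0.04 ± 0.06, adjusted p = 0.62) and the flavoprotein gene Sdha (-0.06 ± 0.07, adjusted p = 0.58) were not called.

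These falls were deeper than the mean of the other 6 strains for 55 of the 79 genes, and shallower for none. Against 129S1/SvImJ alone they were deeper for 6 genes of complex I, 3 of complex IV and 1 of complex V, and for none of complexes II and III. The numbers that fell in the other strains were 33 in 129S1/SvImJ, 13 in WSB/EiJ, 5 in DBA/2J, 4 in C57BL/6J, 0 in A/J and 0 in CAST/EiJ (limma-voom, as in PWK/PhJ), with medians from -0.13 to 0.03. The 13 subunit genes of the mitochondrial genome did not move together. Of them 2 rose and 2 fell, with a median of 0.04. mt-Co1, a subunit of complex IV, was at 13656 to 14715 CPM on CD and 12792 to 17032 CPM on WD (0.04 ± 0.08, adjusted p = 0.779), and mt-Cytb was at 0.20 ± 0.10 (adjusted p = 0.106; 0.0347 without WD replicate 3). mt-Nd1 fell by 0.44 ± 0.08 (adjusted p = 8.16e-06) and mt-Co3 by 0.66 ± 0.12 (adjusted p = 6.57e-06), although all mitochondrial genes together took 5.50% to 6.45% of reads on CD and 6.07% to 8.57% on WD. Reads of mitochondrial genes that also match nuclear copies were not counted on a gene, so their single levels are uncertain.

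**Figure D5:**
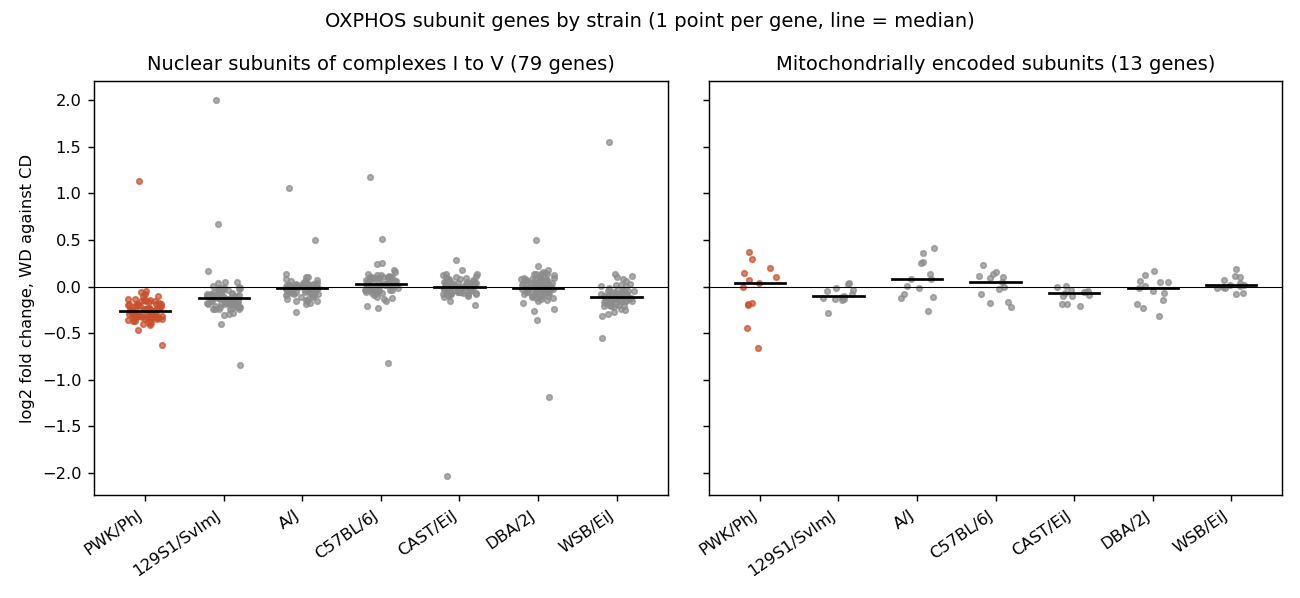
Log2 fold change on WD against CD (y axis) of each nuclear (left, 79 genes) and each mitochondrially encoded (right, 13 genes) OXPHOS subunit gene by strain, with a line at the median. The nuclear genes of PWK/PhJ (red) centre at -0.26 and those of the other strains between -0.13 and 0.03, while the mitochondrially encoded genes of PWK/PhJ centre at 0.04.

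Other mitochondrial genes fell in part. Of 77 genes of the mitochondrial ribosome 50 fell and 1 rose (median -0.18), of 42 assembly factors of the complexes 13 fell and 1 rose, and of 16 genes of the TCA cycle 8 fell and none rose. Dlat, of the pyruvate dehydrogenase complex, was at 83.4 to 137 CPM on CD and 62.2 to 70.1 CPM on WD (-0.56 ± 0.11, adjusted p = 5.25e-05), and Cs, citrate synthase, fell by 0.27 ± 0.08 (adjusted p = 0.0079). Of 12 regulators of mitochondrial biogenesis, Tfam fell by 0.21 ± 0.06 (adjusted p = 0.00785), 1 other fell and none rose. That share lies near the 15.4% of all genes tested that fell. In each of the other strains 1 to 5 of the 12 fell. Ppargc1a, the coactivator PGC-1alpha, was at 5.95 to 13.2 CPM on CD and 6.48 to 8.31 CPM on WD (-0.15 ± 0.23, adjusted p = 0.667).

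Genes of the cytosolic ribosome fell as well. Of 78 tested, 76 fell and none rose, with a median of -0.45 (0.731-fold), and in 69 the diets did not overlap. Rpl36 was at 66.1 to 102 CPM on CD and 44.5 to 56.3 CPM on WD (-0.74 ± 0.09, adjusted p = 5.56e-10), and Rpl10 at 392 to 447 CPM and 272 to 332 CPM (-0.48 ± 0.05, adjusted p = 5.93e-13). Ribosomal genes fell in each of the other strains too, 34 to 74 of the 78, with medians from -0.31 to -0.18, and the fall in PWK/PhJ was deeper than their mean for 47. Short genes as a class had lower values on WD. The median log2 fold change of protein-coding genes was -0.09 for an exonic length up to 1000 bases, -0.08 up to 2000, -0.03 up to 4000, 0.02 up to 8000 and 0.08 beyond, and 24.7% of the shortest but 7.68% of the longest class fell. The median exonic length was 1675 bases for the nuclear OXPHOS genes and 1775.5 for the ribosomal genes. The part of gene length in their fall was not tested. Their medians of -0.26 and -0.45 compare with the -0.08 of that length class.

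The counts of OXPHOS genes that fell were 57 without CD replicate 5, 66 with RIN as a covariate, 59 with upper-quartile normalization, and 32 and 54 in cohorts 1 and 2 alone, and no gene rose in any of these. The corresponding medians lay between -0.28 and -0.22. For the cytosolic ribosome the counts were 72, 76, 73, 72 and 69.

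Stress signals of mitochondria and of the integrated stress response did not move as 1 set. Of 19 genes 6 rose and 2 fell. Gdf15, a circulating stress hormone, was at 4.83 to 13.1 CPM on CD and 8.82 to 22.7 CPM on WD and was not called (0.80 ± 0.48, adjusted p = 0.205), nor was Fgf21 (-0.82 ± 0.37, adjusted p = 0.0843). Fgf21 was called as lower on WD without CD replicate 3 (-1.05, adjusted p = 0.0249) or without WD replicate 5 (-0.96, adjusted p = 0.049). The transcription factor genes Atf4 and Atf5 fell (-0.48 ± 0.10 and -0.56 ± 0.15), and Slc7a11, the cystine importer, and Stc2 rose (2.56 ± 0.59 and 1.19 ± 0.30). Of 20 genes of the unfolded protein response 1 rose and 1 fell. Of 21 genes of the oxidative stress response 6 rose, such as Gsta1 (2.93 ± 0.55, adjusted p = 1.49e-05) and Hmox1 (0.74 ± 0.20, adjusted p = 0.00266), and 5 fell.

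Cell cycle genes rose, 20 of 29 tested, and 1 fell, with a median of 1.07. Mki67, a marker of cycling cells, was at 0.445 to 2.46 CPM on CD and 1.57 to 6.00 CPM on WD, with overlap (1.99 ± 0.48, adjusted p = 0.000628). Bub1, of the spindle checkpoint, had 1 to 8 reads on CD and 14 to 43 on WD (2.43 ± 0.54, adjusted p = 0.000206), and Ccnd1 (cyclin D1) rose by 1.07 ± 0.32 (adjusted p = 0.00604). Of 17 genes of p53 and senescence 7 rose and none fell, and 4 rose without CD replicate 5. Eda2r, a p53 target of the TNF receptor family, was at 0.146 to 0.745 CPM on CD and 0.837 to 4.17 CPM on WD (2.52 ± 0.50, adjusted p = 3.6e-05), and Cdkn1a (p21) was not called (1.39 ± 0.68, adjusted p = 0.112).

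The share of reads that did not map to the reference differed between the diets. It was 2.22% to 4.23% on CD (3.50% ± 0.708, SD, n = 6) and 5.48% to 8.73% on WD (7.88% ± 1.18, SD, n = 7), with no overlap, and the adjusted p of a two-sided exact permutation test was 0.00583 (0.00714 with permutation within cohorts). The share on mitochondrial genes differed by 1.09 percentage points (adjusted p = 0.0262, exact permutation test), and the shares of reads mapped to several places, outside genes or ambiguous were not called (adjusted p = 0.354, 0.371 and 0.354, exact permutation tests). The unmapped share was 4.52% ± 1.61 (SD, n = 6) on CD and 7.42% ± 2.52 (SD, n = 6) on WD in WSB/EiJ, and 2.23% ± 0.329 (SD, n = 8) and 2.82% ± 0.621 (SD, n = 8) in C57BL/6J, the strain of the reference. The mean shares on CD and WD were 4.55% and 5.57% in 129S1/SvImJ and 10.8% and 13.3% in CAST/EiJ, and were lower on WD in DBA/2J (6.45% and 4.77%) and A/J (2.25% and 2.11%). The diets were not tested for this share in the other strains. What these reads are was not tested.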

How the data were processed

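Liver mRNA of 93 mice had been made into libraries with the SMARTER mRNA-Seq kit and sequenced on a BGISEQ-500. Per the authors' processing notes, reads were aligned with STAR 2.7.1a to GRCm38 (mm10), a C57BL/6J genome, and the deposited values are raw read counts per gene, with no normalization. The annotation release and the strand setting of the counting are not given in the sources used here, so overlapping and antisense genes are uncertain, as are reads of a wild-derived strain that differ from the reference. The 4 summary lines of each library (unmapped, multimapped, outside genes, ambiguous) stayed out of library sizes and tests and were compared as shares of all reads with 2-sided exact permutation tests over 1716 arrangements, adjusted over 5 shares.

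Groups and cohorts came from the labels. Counts of genes kept by filterByExpr (minimum count 10) were TMM-normalized and fitted with limma-voom (limma 3.58.1, edgeR 4.0.16, R 4.3.3) as 14 means of strain and diet over all 93 mice with cohort within strain as a covariate. DEGs had a Benjamini–Hochberg adjusted p below 0.05 over the 19110 genes. Differences between strains are contrasts of the same fit. Fold changes and SE are those of limma-voom, CPM are TMM-scaled counts, and symbols and positions are from GENCODE vM21. Scripts were tested on simulated data with known changes. Alternatives were edgeR, DESeq2 1.42.0, other filters, upper-quartile normalization, no cohort term, RIN as a covariate, quality weights, PWK/PhJ mice alone, single cohorts and the omission of each mouse.

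Genes were named by rule: the 10 largest rises and falls with no overlap between diets, the 5 largest differences from the other strains in each direction, in each of 60 lists the 2 DEGs with the largest change and the gene with the highest mean CPM, and anchor genes marked in the lists. Not every candidate is described, some genes are not reported here, and A1bg, Cux2, Cyp2b9, Cyp2b13 and Hmgcs1 were added after their values were seen. The strain, the lists and the named genes were chosen with earlier results of these data known. No pair of PWK/PhJ libraries was a duplicate, with a chi-square of 21.6 to 214 per gene over 78 pairs. SE and p-values of the limma-voom fit over all mice rest on the spread between mice within all 14 groups of strain and diet, pooled for each gene. The SE beside PWK/PhJ levels are therefore not the spread of the PWK/PhJ mice alone. The permutation tests of read shares use PWK/PhJ mice only.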

Additional observations from a re-analysis of the deposited data

Results flagged for a closer look

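Of 276 groups of mice examined, 25 held 1 mouse that lay apart by Dixon's criterion, which chance alone meets in about 1 of 20 groups. CD replicate 3 was apart for 4 sex-biased genes, with 588 CPM of Sult3a1 (the other CD mice had 82.7 to 165), 1.51 CPM of A1bg, 1.61 CPM of Cyp2b13 and 9.16 CPM of Elovl3. CD replicate 5 was the lowest CD mouse for the macrophage genes Clec4f (17.9 CPM against 77.7 to 126), Cd5l (10.5 CPM), Adgre1 (0.993 CPM) and Tlr4 (0.359 CPM), and also for Abcg1 (4.10 CPM), Fn1 (1186 CPM) and Tgfb1 (9.25 CPM). It had the highest share of multimapped reads of the CD mice, 10.6%.

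Other CD mice apart were replicate 1 for Cyp8b1 (210.3 CPM) and Pck1 (240.3 CPM) and replicate 2 for Cygb (8.85 CPM) and Ndufb8 (80.2 CPM). On WD, replicate 6 was lowest for Tgfb1 (13.6 CPM), Vwf (10.8 CPM) and Mki67 (1.57 CPM). Replicate 7 was lowest for Cyp8b1 (196 CPM) and Ccl20 (0.319 CPM) and highest for Timd4 (6.69 CPM) and Fga (5114 CPM). Replicate 2 was lowest for Cd8a (1.43 CPM) and highest in the share of reads outside genes (5.06%).

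The diet effect in PWK/PhJ was tested against the mean of the other 6 strains, and for 55 of the genes described the difference passed the threshold (limma-voom, adjusted p of at most 0.0388). Values are log2 differences. A difference from this mean need not hold against each single strain. Against 129S1/SvImJ alone Pck1, Hal and Gls2 did not pass (adjusted p = 0.41, 0.217 and 0.346, limma-voom). Among sex-biased genes and their axis it was -8.82 for Sult3a1, -8.70 for Cyp3a41a, -6.30 for Cyp3a44, -3.19 for A1bg and -0.57 for Igfals. For the first 4 genes most or all of the other strains had next to no reads on either diet, so these differences largely restate the fall in PWK/PhJ. Among lipid genes it was 6.41 for Sptlc3, 0.45 for Abcg1, 1.79 for Pparg, -1.08 for Elovl6, -0.93 for Scd1, -0.91 for Tm6sf2 and -0.25 for Apoe. Among other hepatocyte genes it was 3.48 for Mup19, 3.73 for Orm1, -1.02 for Pck1, -0.78 for Hal, -0.43 for Gls2, -1.69 for G6pdx, -0.35 for Serpinc1 and -0.40 for F7.

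Among matrix and stellate cell genes the difference was 2.45 for Col1a1, 2.21 for Col3a1, 3.39 for Postn, 2.77 for Tnc, 3.05 for Vcan, 1.00 for Spp1, 2.17 for Timp1, 4.04 for Mmp27, 0.60 for Mmp14, 1.93 for Lox, 0.80 for Pdgfrb, 0.93 for Cygb and 1.92 for Tgfb2. Among macrophage, ductular and inflammatory genes it was 3.99 for Trem2, 0.87 for Adgre1, 0.70 for Krt8, 1.86 for Epcam, 1.38 for Sox9, 3.53 for Cftr, 2.40 for Ccl20, 2.27 for Cd14, 0.81 for Tlr4 and 1.32 for C7. For Bub1 and Eda2r it was 1.84 and 1.70. Among mitochondrial and ribosomal genes it was -0.55 for Ndufb8, -0.35 for Ndufa6, -0.27 for Cox4i1, -0.28 for Cox8a, -0.24 for Uqcrh, -0.23 for Atp5g1, -0.69 for mt-Co3, -0.31 for mt-Nd1, -0.40 for Rpl36 and -0.24 for Rpl10.

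Reads that mapped nowhere, which enter no gene count, made up 7.88% of reads on WD and 3.50% on CD.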

How the results depend on the processing

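Of 96 genes described and called, 88 kept their call in every one of the 22 alternatives, apart from the fits of single cohorts, in which they were tested, and none changed sign in any. A minimum of 10 counts in every PWK/PhJ mouse left 77 of the 96 to test, and PWK/PhJ mice alone 95. In the fits of single cohorts, which hold fewer mice, 25 of the 96 calls ended in cohort 1 and 19 in cohort 2. Outside those fits, calls ended at least once for Igfals, Cux2, Ppara, Igf1, Apoa4, S100a8, Cxcl12 and Alb. Leaving out single mice ended the call of Cux2 for 10 of 13 mice, of Igfals and Ppara for 8, of Igf1 for 6, of Apoa4 for 5 and of S100a8 and Cxcl12 for 4. The number of DEGs, 6008, was 2947 in cohort 1 alone and 3269 in cohort 2 alone, which hold fewer mice. It ranged from 5050 to 6051 when single mice were left out, with the lowest count without CD replicate 5, and was 5715 with edgeR, 5930 with DESeq2 and 7825 with sample quality weights. Cohorts differed in diet effect for 12 genes with DESeq2 against 0 with limma-voom. No paired analysis was possible because replicate numbers were given in accession order and pair no mice. Genes with few reads on 1 diet, such as Trem2 and Ccl20, have fold changes that depth limits.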
